A study of Mus musculus with 4 samples.

Results

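The 10 genes described here are secreted inhibitors of Wnt signaling (Sfrp1, Sfrp2, Frzb, Wif1, Notum, Dkk1, Dkk2 and Dkk3) and a pair of common Wnt target genes (Axin2 and Lef1). They were chosen by symbol, and each matched 1 of the 32285 genes in the files. Single cells of the proximal tissue of the lower incisor, taken at postnatal day 15, were sequenced with 10x Genomics 3' chemistry, which counts transcripts as unique molecular identifiers (UMIs). WT mice gave 2 libraries and Din-KO mice gave 2. The Din-KO mice carried a whole-body tm1b knockout of Din (4930453N24Rik), made from a KOMP gene-trap allele by germline Cre and keeping a LacZ reporter. How many mice went into each library is not stated, so the spread between libraries may be partly technical.

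Wnt ligands are lipid-modified proteins that bind Frizzled receptors and the co-receptors Lrp5 and Lrp6, which stabilizes β-catenin and lets it act with Tcf/Lef factors on target genes. Secreted antagonists act at several points: the Sfrp proteins, Frzb and Wif1 bind the ligands, Notum removes their lipid, and Dkk1 blocks the co-receptors. In the mouse incisor, which grows throughout life, mesenchymal stem cells at the proximal end give rise to dental pulp and to odontoblasts, the cells that make dentin. The dental follicle is the connective tissue around the tooth.

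The files held 3257 to 6958 barcodes per library, of which 11310 cells were kept in all, from 1272 to 4575 per library, and total UMIs per library ran from 32198098 to 54348039. Clusters were built without the 10 genes or other Wnt genes and named from marker lists. None of the 10 genes was a marker, but the mesenchyme list held Twist1 and Msx1, which are also among the pathway genes compared below. Pulp-like cells numbered 3805, follicle-like cells 1217 and odontoblast-like cells 505, with 103 odontoblast-like cells in the smallest library. All mesenchyme-like cells together numbered from 633 to 3028 per library. Dspp, the dentin gene among the odontoblast markers, was at 287 to 5728 CPM per library in odontoblast-like cells and at 14.5 CPM or less in pulp-like and follicle-like cells. Within the odontoblast-like class, cluster 13, with 276 cells, was nearly without Dspp, as given below. Its leading genes held the odontoblast markers Smpd3, Sgms2 and Plac8. A level in CPM is the UMIs of a gene over all UMIs of the class in a library, on the usual CPM scale. In sums like these, fewer expressing cells and less RNA per cell cannot be told apart. Both Din-KO libraries held cells with Y-linked UMIs (43.5% and 43.4% of mesenchyme-like cells) and the WT libraries held 0%, so sex and genotype cannot be told apart in the whole sums.

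The genes are protein-coding and lie, on GRCm38, on chromosome 8 (Sfrp1, 23411502 to 23449632), chromosome 3 (Sfrp2, 83766321 to 83774316; Lef1, 131110471 to 131224356; Dkk2, 132085292 to 132180304) and chromosome 2 (Frzb, 80411970 to 80447625). Wif1 is on chromosome 10 (121033960 to 121100650), Notum on chromosome 11 (120653788 to 120661175), Axin2 on chromosome 11 (108920349 to 108950783), Dkk1 on chromosome 19 (30545863 to 30549665) and Dkk3 on chromosome 7 (112116017 to 112159057). RefSeq promoter windows (GRCm38.p6, 250 bases before to 50 after a start) were found for 7 of the 10 genes. They were searched on both strands for 4 versions of the Tcf/Lef letters (CTTTGAA as the first, then the version CTTTGAT, then the version CTTTGTA and last the version CTTTGTT), at least 1 of which is in 16.9% of all 32851 windows. Windows of 2 genes held a match, Dkk1 with 2 and 1 of the 4 Lef1 windows with 1, and those of Sfrp2, Frzb, Dkk2, Wif1 and Axin2 held none of these letters. The stretches around the matches are shown with the matched letters in capitals, and a link of the matches to the levels of the genes was not tested.
Lef1, chr3:131156136-131156165, plus strand: caacctcagaaTACAAAGtaggattgcatt
Dkk1, chr19:30549586-30549615, minus strand: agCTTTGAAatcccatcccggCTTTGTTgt
The first is within Lef1 but in no exon of it in GENCODE, at -147 from a RefSeq start inside the gene, and its capitals are the reverse complement of CTTTGTA. The second holds matches at -117 and -98 from a RefSeq start and overlaps an annotated exon and UTR of Dkk1 in GENCODE. A match of letters is a description and not a binding site.

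Pulp-like, follicle-like and odontoblast-like cells were ranked by median CPM over libraries, without the other classes. Among them Dkk1 and Notum, with Axin2, were highest in odontoblast-like cells, and the other 7 genes were highest in follicle-like cells. The same class came first for all 10 genes by the share of cells with at least 1 UMI, also after each cell was thinned to 2000 UMIs. This ranks the classes as pooled over their clusters. Pulp-like cluster 2 alone was above the follicle-like mean for Frzb, Lef1 and Wif1, as given below. The classes come from other genes of the same cells, so differences between them describe where the genes lay. UMIs were summed per class and library and compared with edgeR's quasi-likelihood test, with the library as a block and Benjamini-Hochberg adjusted p (called at 0.05). Between follicle-like and pulp-like cells 8 of 10 genes were called, 7 higher and 1 lower in follicle-like cells, where 37.8% of 13224 genes were called (19.4% higher, 18.4% lower). Between odontoblast-like and pulp-like cells 9 of 10 were called, 4 higher and 5 lower in odontoblast-like cells, against 48.9% of genes (24.1% higher, 24.7% lower). Between odontoblast-like and follicle-like cells all 10 were called, 3 higher and 7 lower in odontoblast-like cells, against 50.7% of genes (25.4% higher, 25.2% lower). The median log2 fold change of the 10 genes was 1.22 for follicle-like against pulp-like cells, -0.86 for odontoblast-like against pulp-like cells and -2.24 for odontoblast-like against follicle-like cells, and the median of all tested genes was -0.012, -0.030 and 0.0048. Fold changes are from sums scaled by TMM, so they differ somewhat from ratios of the CPM values.

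**Figure D1:**
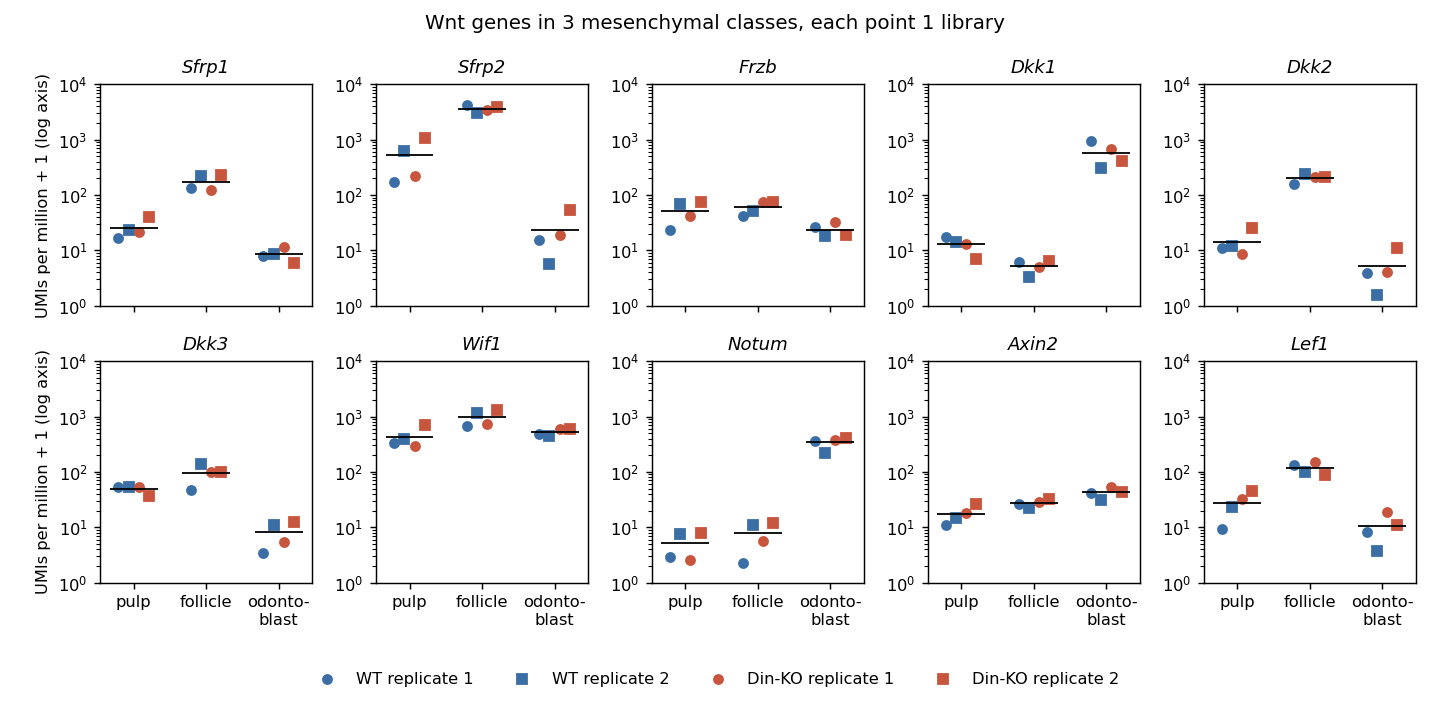
CPM + 1 (log axis) of each gene in pulp-like, follicle-like and odontoblast-like cells; each point is 1 library (blue WT, red Din-KO, circles replicate 1, squares replicate 2) and the line is the mean of 4 libraries. Dkk1 and Notum sit at 222 CPM or more in odontoblast-like cells of every library and at 16.8 CPM or less in the other classes, while Sfrp1, Sfrp2, Dkk2 and Lef1 sit highest in follicle-like cells.

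Sfrp2, which binds Wnt ligands in the extracellular space, was far lower in odontoblast-like than in follicle-like cells (log2 fold change -7.40 ± 0.60, SE, edgeR adjusted p = 2.1e-06). In follicle-like cells its level was 4209 CPM in WT replicate 1, 2980 CPM in WT replicate 2, 3427 CPM in Din-KO replicate 1 and 3846 CPM in Din-KO replicate 2 (mean 3616 ± 531, SD, n = 4 libraries). In odontoblast-like cells it was at 14.2, 4.7, 18.1 and 51.8 CPM in the same order. Every follicle-like library lay above every pulp-like and odontoblast-like library. The follicle-like sums were 3.22 ± 0.48 higher on the log2 scale than the pulp-like sums (edgeR adjusted p = 0.00035). Odontoblast-like cells were lower than pulp-like cells by a log2 fold change of -4.18 ± 0.54 (edgeR adjusted p = 8.7e-05).

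Within the follicle-like class Sfrp2 was uneven. Cluster 8, with Sfrp2 and Pcp4 among its leading genes, held 71.2% of all Sfrp2 UMIs and stood at 9837, 8074, 6672 and 8857 CPM in the 4 libraries (WT replicates 1 and 2, then Din-KO replicates 1 and 2, the order used throughout). Cluster 6, led by Bmp3 and Tnn, stood at 418, 690, 563 and 1493 CPM, below cluster 8 in 4 of 4 libraries. Pulp-like cells were also uneven, since cluster 2 (leading gene Smoc2) was at 2122, 5311, 1220 and 4173 CPM and cluster 1 (leading gene Cldn10) at 7.6, 9.3, 16.7 and 0 CPM. In macrophage-like cells, which should lack Sfrp2, 5.31% to 13.6% of cells per library had a UMI of it (median 8998 to 10597 UMIs per cell). The odontoblast-like share of 1.89% to 15.5% (median 12142.5 to 21541 UMIs per cell) did not lie clear of that background. Of the 382 macrophage-like Sfrp2 UMIs, 205 were in cluster 25, which had a median of 18470 UMIs per cell.

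Sfrp1, a ligand-binding relative of Sfrp2, had the same order of classes. Its levels were 130, 215, 121 and 226 CPM in follicle-like cells, 15.9, 22.2, 20.5 and 39.6 CPM in pulp-like cells and 6.9, 7.5, 10.6 and 4.9 CPM in odontoblast-like cells. None of the 3 classes overlapped with another over the 4 libraries. The log2 fold change of follicle-like over pulp-like cells was 2.90 ± 0.20 (edgeR adjusted p = 1.5e-06), and that of odontoblast-like over pulp-like cells was -1.30 ± 0.26 (edgeR adjusted p = 0.0020). Unlike Sfrp2, Sfrp1 was higher in cluster 6 than in cluster 8 in 4 of 4 libraries (mean 213 and 135 CPM). Outside the mesenchyme it was also found in glia-like cells, at 97.9, 61.4, 44.4 and 80.2 CPM.

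Frzb (sFRP3), the third ligand-binding Sfrp, was lower in odontoblast-like than in follicle-like cells by a log2 fold change of -1.12 ± 0.27 (edgeR adjusted p = 0.0051), a value that depended on the clustering. At resolution 0.5, where the odontoblast-like class was left with the cells of cluster 16 alone, it was -3.17 against follicle-like and -2.97 against pulp-like cells, and with cells chosen one by one it was -0.45 and -0.091 and neither was called. It was at 41.6, 50.5, 75.3 and 72.9 CPM in follicle-like cells and at 22.2, 68.3, 41.1 and 73.9 CPM in pulp-like cells, ranges that overlapped (log2 fold change 0.39 ± 0.25, edgeR adjusted p = 0.25). In odontoblast-like cells it was at 25.0, 17.0, 31.0 and 17.8 CPM, with a log2 fold change of -0.73 ± 0.28 from pulp-like cells (edgeR adjusted p = 0.048), a call kept in 4 of 12 alternatives. Its differences were larger between clusters: cluster 13 was above cluster 16 in 4 of 4 libraries (mean 41.9 and 5.1 CPM), both of them odontoblast-like, and pulp-like cluster 2 was above cluster 1 in 4 of 4 (mean 154 and 9.2 CPM). Cycling mesenchyme-like cells had 56.3, 87.0, 64.2 and 74.8 CPM.

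Wif1, which binds ligands through its WIF domain, was broad. It was at 667, 1137, 734 and 1328 CPM in follicle-like cells, 491, 447, 595 and 596 CPM in odontoblast-like cells and 330, 385, 288 and 693 CPM in pulp-like cells. Follicle-like cells were higher than pulp-like cells by a log2 fold change of 1.25 ± 0.16 (edgeR adjusted p = 9.1e-05), and odontoblast-like cells by 0.73 ± 0.15 (edgeR adjusted p = 0.0025). Among pulp-like clusters it was lowest in cluster 0 (leading genes Vcan and Sytl4), at 137, 110, 129 and 203 CPM, and highest in cluster 2. It was also detected in epithelium-like cluster 14, led by the ameloblast genes Amelx and Enam, at 332, 547, 649 and 474 CPM. In macrophage-like cells, taken as background, 8.93% to 12.5% had a Wif1 UMI, against 59.4% to 80.3% of pulp-like cells (median 6761 to 9766 UMIs per cell). Of the 525 macrophage-like Wif1 UMIs, 429 were in cluster 25.

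Dkk1, the inhibitor of the Lrp5 and Lrp6 co-receptors, was concentrated in odontoblast-like cells. Its levels there were 953, 303, 664 and 412 CPM, against 16.8, 13.1, 11.8 and 6.1 CPM in pulp-like cells and 5.2, 2.3, 4.0 and 5.5 CPM in follicle-like cells. The odontoblast-like class held 80.5% of all 7866 Dkk1 UMIs. It was higher than pulp-like cells by a log2 fold change of 5.82 ± 0.22 (edgeR adjusted p = 1.9e-08) and higher than follicle-like cells by 7.29 ± 0.24 (edgeR adjusted p = 8.6e-09), and follicle-like cells were lower than pulp-like cells (-1.47 ± 0.26, edgeR adjusted p = 0.0010). In pulp-like cluster 0 Dkk1 was at 32.7, 23.3, 20.2 and 11.2 CPM, above cluster 1, which had 4 UMIs in WT replicate 1 and 0 in the other 3 libraries.

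Notum, a secreted enzyme that removes the lipid of Wnt ligands, was led by the same class as Dkk1. It was at 363, 222, 383 and 403 CPM in odontoblast-like cells, at 1.9, 6.5, 1.6 and 6.9 CPM in pulp-like cells and at 1.3, 10.0, 4.7 and 11 CPM in follicle-like cells. Odontoblast-like cells held 75.0% of its UMIs and were higher than pulp-like cells by a log2 fold change of 7.16 ± 0.43 (edgeR adjusted p = 4.0e-07). The difference of follicle-like from pulp-like cells did not pass the test (1.19 ± 0.51, edgeR adjusted p = 0.089). A Notum UMI was found in 52.3% to 73.6% of odontoblast-like cells per library and in 1.12% to 5.39% of pulp-like cells. The macrophage-like range of 0.211% to 3.41% overlapped the pulp-like one. This background was uneven, since cluster 25 held 62 of the 68 macrophage-like Notum UMIs. Its second-best marker list was the cycling list, and its median was 18470 UMIs per cell, against 8847 in cluster 3 and 11381.5 in cluster 4. Whether the pulp-like share lay above background was not tested.

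Both genes were present in cluster 13 (leading genes Smpd3, Notum and Sgms2), which was nearly without Dspp (4.8 to 16.5 CPM), and in cluster 16 (leading genes Bglap and Dspp). Dkk1 was at 703, 299, 398 and 403 CPM in cluster 13 and at 1307, 305, 1037 and 418 CPM in cluster 16, the higher one in 4 of 4 libraries. Notum was at 309, 393, 276 and 632 CPM in cluster 13 and at 438, 141, 533 and 252 CPM in cluster 16, so cluster 16 was the higher one in both replicate 1 libraries and the lower one in both replicate 2 libraries. Cluster 16 itself differed between these libraries, with Dspp at 685 and 1509 CPM in the WT and Din-KO libraries of replicate 1 and at 8425 and 6315 CPM in those of replicate 2, and its part in the level of Notum was not tested. Cells with a UMI of both Dkk1 and Notum made up 64.2%, 40.2%, 57.9% and 50.5% of odontoblast-like cells, where the product of the single shares was 55.5%, 32.5%, 46.1% and 38.6%. Within cluster 13 alone the shares with both were 54.3%, 63.8%, 52.1% and 77.5%, against products of 46.0%, 61.7%, 40.7% and 69.8%. Within cluster 16 they were 83.3%, 27.1%, 73.3% and 33.3%, against 76.5%, 17.6%, 61.9% and 23.1%. The product takes no account of differences in UMIs per cell, and their part was not tested. The pair was counted after its levels had been seen. Lower levels of both genes were found in cycling mesenchyme-like cells, where Dkk1 was at 82.2, 82.3, 57.4 and 71.0 CPM and Notum at 49.1, 91.0, 41.0 and 135 CPM.

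**Figure D2:**
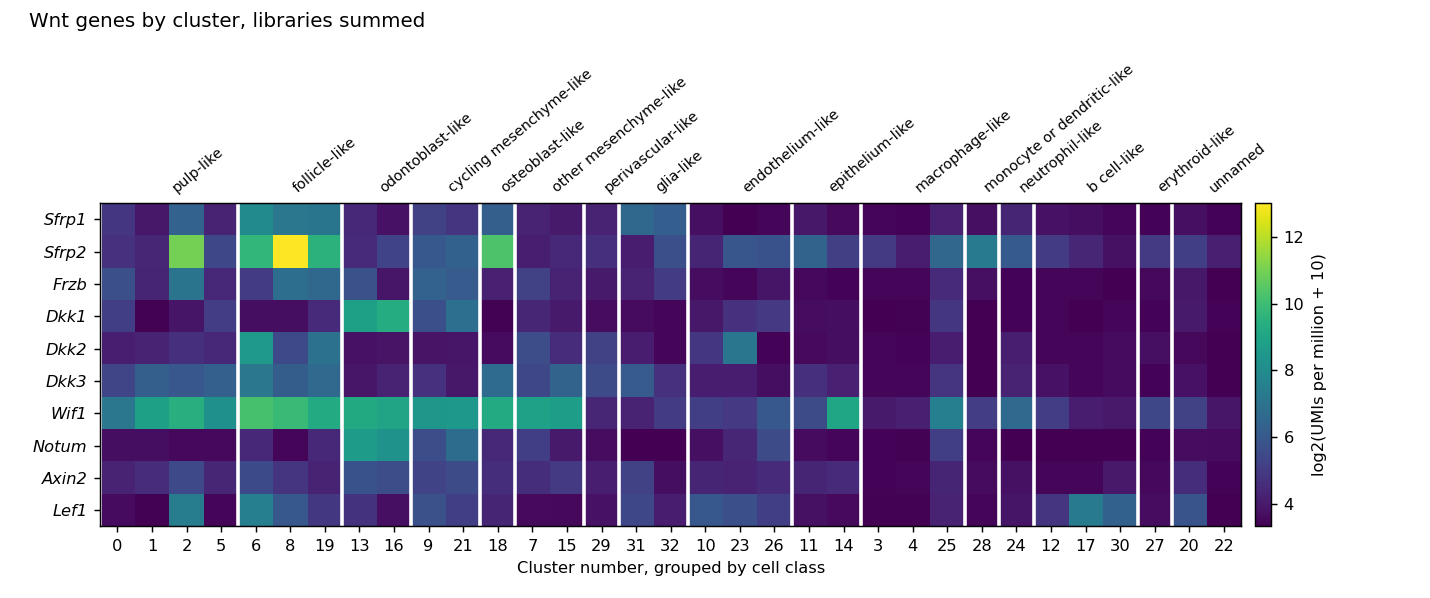
Level of each gene as log2(CPM + 10), libraries summed, in 33 clusters grouped by class (columns) and 10 genes (rows). Dkk1 and Notum are brightest in clusters 13 and 16, Sfrp2 in clusters 8 and 2, Dkk2 in cluster 6, and Wif1 across the mesenchymal clusters and in cluster 14.

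Dkk2, a Dkk that can block or stimulate the pathway depending on the setting, was led by the follicle-like class. It was at 158, 239, 207 and 214 CPM there, at 10.2, 10.9, 7.7 and 24.4 CPM in pulp-like cells and at 2.9, 0.6, 3.1 and 10.1 CPM in odontoblast-like cells. Follicle-like libraries did not overlap with the others (log2 fold change over pulp-like cells 4.17 ± 0.32, edgeR adjusted p = 3.1e-06). Cluster 6 held 70.5% of its UMIs, at 286, 355, 445 and 344 CPM, against 20.7, 53.9, 21.6 and 35.1 CPM in cluster 8. Cluster 6 was above cluster 8 in 4 of 4 libraries for Dkk2, Dkk3, Sfrp1, Axin2 and Lef1, and cluster 8 above cluster 6 in 4 of 4 for Sfrp2 and Frzb. Dkk2 was also at 131, 106, 130 and 156 CPM in endothelium-like cluster 23 (leading genes Gja4 and Cldn5). The difference of odontoblast-like from pulp-like cells (-1.27 ± 0.48, edgeR adjusted p = 0.047) was kept in 5 of 12 alternatives.

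Dkk3, a divergent Dkk that does not act on Lrp6 in the way Dkk1 does, was at 45.2, 137, 97.5 and 98.4 CPM in follicle-like cells and 51.5, 53.1, 52.6 and 35.1 CPM in pulp-like cells. The classes overlapped through WT replicate 1, and the difference (0.83 ± 0.29, edgeR adjusted p = 0.041) was kept in 5 of 12 alternatives. Odontoblast-like cells, at 2.4, 10.0, 4.4 and 11.5 CPM, lay below both classes in every library (log2 fold change from pulp-like cells -2.54 ± 0.38, edgeR adjusted p = 0.00028). The osteoblast-like cluster was at 90.8, 65.5, 102 and 127 CPM.

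Axin2 encodes a scaffold of the β-catenin destruction complex and is a feedback target of the pathway. Its level followed odontoblast-like over follicle-like over pulp-like cells, at 40.2, 30.0, 53.2 and 42.7 CPM, 25.7, 21.0, 27.4 and 31.0 CPM, and 10.2, 13.9, 17.1 and 25.1 CPM. The order held in each of the 4 libraries. Odontoblast-like cells were higher than pulp-like cells by a log2 fold change of 1.75 ± 0.16 (edgeR adjusted p = 6.0e-06) and than follicle-like cells by 0.94 ± 0.15 (edgeR adjusted p = 0.00029). Among pulp-like clusters, cluster 2 was above clusters 0 and 1 in 4 of 4 libraries (mean 35.6, 10.6 and 17.3 CPM).

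Lef1, the transcription factor that binds β-catenin on target genes, did not follow Axin2. It was at 131, 98.4, 148 and 88.7 CPM in follicle-like cells, 8.4, 22.2, 31.6 and 43.4 CPM in pulp-like cells and 7.3, 2.8, 17.8 and 10.1 CPM in odontoblast-like cells. Follicle-like cells were higher than pulp-like cells by a log2 fold change of 2.47 ± 0.37 (edgeR adjusted p = 0.00035), and odontoblast-like and pulp-like cells did not pass the test (-0.99 ± 0.46, edgeR adjusted p = 0.099). Nearly all pulp-like Lef1 was in cluster 2, at 102, 185, 180 and 175 CPM, with 2.5 CPM or less in clusters 0, 1 and 5. Outside the mesenchyme Lef1 was in B cell-like cluster 17 (87.3, 159, 103 and 257 CPM), where it is a known factor of B cell precursors, and in endothelium-like cells (38.0, 42.8, 53.1 and 43.0 CPM). Cluster 2 was therefore the pulp-like cluster with the highest mean of Sfrp1, Sfrp2, Frzb, Wif1, Axin2 and Lef1. The cluster 2 mean was above the follicle-like mean for Frzb (154 against 60.1 CPM), Lef1 (160 against 117) and Wif1 (1019 against 966). It was below for Sfrp1 (84.9 against 173), Sfrp2 (3207 against 3616), Dkk2 (26.4 against 205) and Dkk3 (53.0 against 94.4).

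For each gene that reached 50 CPM in a cluster, the genes with the most similar level over the 33 clusters were listed among 8239 genes (Pearson r of log2(CPM + 10); clusters share libraries and lineages, so r is a description). Dkk1 was most like Sall1 (r = 0.94), Notum (0.93) and Ism1 (0.92), and Notum most like Dkk1 (0.93), Aspscr1 (0.92) and Ism1 (0.92). Sfrp2 was most like Gm26771 (0.93), Rspo1 (0.92) and H19 (0.91). Gm26771 (chromosome 3, 83773853 to 83789956, minus strand) overlaps the 3' end of Sfrp2 on the other strand. Aspscr1 (chromosome 11, 120672973 to 120709447, plus strand) does not overlap Notum. Sall1 and Spon1 are also on the marker lists that named the odontoblast-like and follicle-like clusters. Among the 3 genes most like Sfrp1 were Fzd1 (0.88) and Spon1 (0.87). Frzb was most like Vit (0.94), Lama1 (0.87) and Maob (0.87), and Dkk3 most like Antxr1 and the collagen genes Col6a1 and Col3a1 (0.92, 0.92 and 0.91). Among the 3 genes most like Wif1 were Cdh11 (0.90) and 9130024F11Rik (0.89). The closest genes were less alike for Dkk2 (Vegfc, Mcc and Tgfb1i1, 0.71, 0.71 and 0.70) and Lef1 (Zfp422, Rtf1 and Tcf12, 0.73, 0.71 and 0.70). Axin2 did not reach 50 CPM.

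The other genes of the pathway, from lists of ligands, receptors, further antagonists, and mediators and targets, were compared between classes in the same fits. Of all tested genes, 19.4% were higher and 18.4% lower in follicle-like than in pulp-like cells. In odontoblast-like against pulp-like cells 24.1% were higher and 24.7% lower. The counts of the lists were not tested against these shares. Of 8 ligands tested (median log2 fold change 0.69), 4 were higher and 1 lower in follicle-like than in pulp-like cells, with Wnt10b (log2 fold change 4.77 ± 0.78), Wnt11 (4.48 ± 0.33) and Wnt9a (2.60 ± 0.33) the largest. In odontoblast-like against pulp-like cells (median 0.84) 3 were higher and 2 lower, led by Wnt10a (7.01 ± 0.26), Wnt6 (4.96 ± 0.11) and Wnt11 (2.88 ± 0.37). Of 16 receptors (median -0.17), 2 were higher and 3 lower in follicle-like than in pulp-like cells, with the Frizzled receptors Fzd1 (1.81 ± 0.19) and Fzd3 (-1.08 ± 0.17) and the Dkk receptor Kremen1 (1.09 ± 0.25) the largest. In odontoblast-like against pulp-like cells (median -0.11) 4 receptors were higher and 5 lower, among them Kremen1 (2.65 ± 0.25), the R-spondin receptor Lgr6 (2.23 ± 0.25) and the Wnt5a receptor Ror1 (-1.46 ± 0.35).

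Of 9 further antagonists (median 1.53), 5 were higher and 1 lower in follicle-like than in pulp-like cells, with Sfrp4 (4.95 ± 0.82), Rnf43 (4.2 ± 0.47) and Apcdd1 (2.23 ± 0.25) the largest. In odontoblast-like against pulp-like cells (median 1.19) 5 were higher and 2 lower, led by the Lrp inhibitor Sost (8.55 ± 0.31), Sostdc1 (-3.01 ± 0.30) and Rnf43 (2.53 ± 0.60). Of 19 mediators and targets (median -0.021), 4 were higher and 6 lower in follicle-like cells, with Msx2 (-4.39 ± 0.24), Nkd1 (1.60 ± 0.30) and Nkd2 (1.28 ± 0.20) the largest, and 9 were higher and 4 lower in odontoblast-like than in pulp-like cells (median 0.20), with the feedback inhibitors Nkd1 (3.0 ± 0.30) and Nkd2 (2.77 ± 0.20) and the factor Tcf7 (2.43 ± 0.22) the largest. The adjusted p of each named gene was 0.0060 or lower in edgeR. Between odontoblast-like and follicle-like cells, 2 ligands were higher and 4 lower, and 7 receptors higher and 3 lower. Further antagonists had 3 higher and 6 lower, and mediators and targets 11 higher and 4 lower (medians -1.06, 0.21, -1.67 and 0.60). Of all tested genes 25.4% were higher and 25.2% lower between these classes. There Wnt10a (7.24 ± 0.26), Wnt6 (6.57 ± 0.13), Sost (9.44 ± 0.32) and Msx2 (4.33 ± 0.24) were higher in odontoblast-like cells, and Wnt9a (-4.77 ± 0.50), Fzd1 (-2.63 ± 0.21), Sfrp4 (-4.11 ± 0.87), Igfbp4 (-3.48 ± 0.24) and Twist1 (-2.95 ± 0.12) were lower. Lgr6 (3.03 ± 0.26) and Bmp4 (2.37 ± 0.15) were also higher, and Ror1 (-2.03 ± 0.33) lower.

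Between Din-KO and WT none of the 10 genes was called in any class in the main fits, which had no replicate block. Some alternative fits, among them those with the replicate number as a block, called Lef1, Sfrp2 or Notum, as given in the last section. In pulp-like sums edgeR called 0 of the 10 genes and 0.0152% of 13168 genes, in follicle-like cells 0 of 10 and 0% of 12700, in odontoblast-like cells 0 of the 9 that passed the filter on low counts (not Dkk2) and 0% of 10980, and in all mesenchyme-like cells 0 of 10 and 0% of 15279. At an unadjusted p under 0.05 there were 2 of the 10 genes in pulp-like cells (Lef1 and Axin2) and 1 in follicle-like cells (Frzb). There were 2 in odontoblast-like cells (Lef1 and Sfrp2) and 0 in all mesenchyme-like cells. Among all tested genes there were 228 of 13168, 284 of 12700, 72 of 10980 and 152 of 15279 in the same order. DESeq2 called 0 of the 10 genes in each. Every adjusted p of the 10 genes was 1 in these fits. The pathway lists held 0 genes called by edgeR in the same 4 fits, with 3 genes at an unadjusted p under 0.05 in pulp-like cells, 0 in follicle-like, 1 in odontoblast-like and 0 in all mesenchyme-like cells. The genotype effect in follicle-like and in odontoblast-like cells was also tested for a difference from that in pulp-like cells. Each test called 0 of the 10 genes and 0% of 13224 genes. At an unadjusted p under 0.05 there were 1 of the 10 (Lef1) and 0, against 292 and 276 of the 13224 genes.

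**Figure D3:**
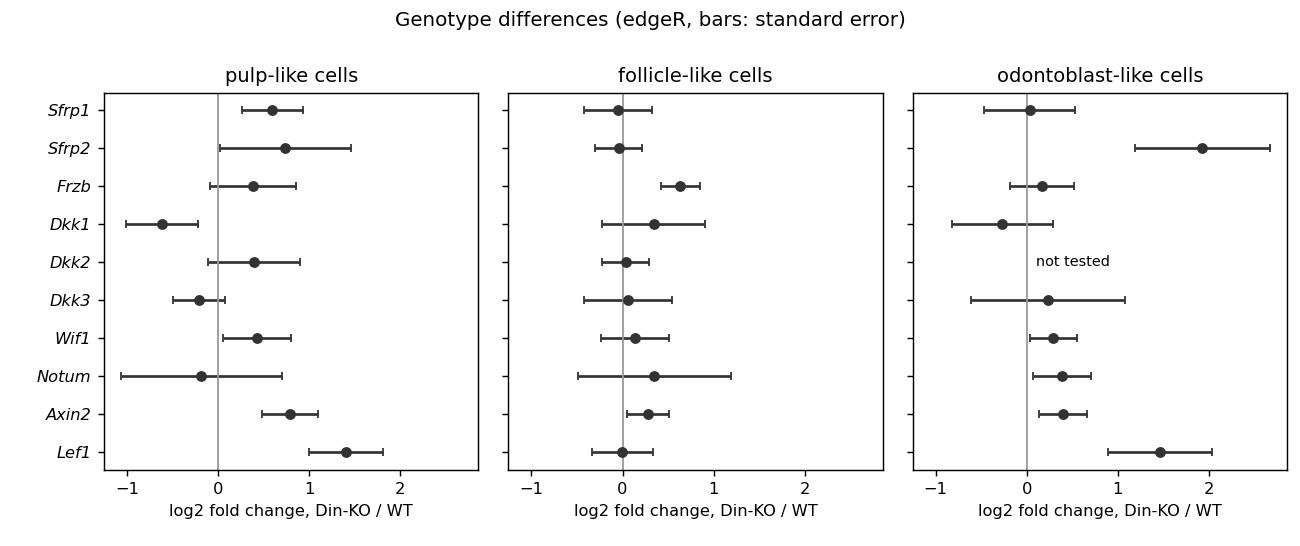
Log2 fold change of Din-KO over WT (x axis) with its standard error for each gene in pulp-like, follicle-like and odontoblast-like cells; values right of 0 are higher in Din-KO. Sfrp2 (1.93) and Lef1 (1.46) in odontoblast-like cells and Lef1 (1.40) in pulp-like cells lie farthest right, with wide errors, and none passed the test.

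Lef1 in pulp-like cells was at 8.4 and 22.2 CPM in WT and 31.6 and 43.4 CPM in Din-KO (log2 fold change 1.40 ± 0.41, edgeR adjusted p = 1, unadjusted p = 0.0093). The genotypes did not overlap, as in 10.6% of tested genes with Din-KO above WT. The make-up of the pulp-like class also differed. Cluster 2, which holds nearly all Lef1 of this class, made up 9.96% and 11.3% of pulp-like cells in WT and 25.0% and 27.7% in Din-KO. These shares rest on 167 of 1677 and 23 of 204 cells in WT, and on 447 of 1787 and 38 of 137 in Din-KO. The replicate 2 values are therefore the less certain ones. As a share of all mesenchyme-like cells, cluster 2 overlapped between genotypes. It was 167 of 2645 cells in WT replicate 1 and 23 of 843 in WT replicate 2. In Din-KO it was 447 of 3028 cells in replicate 1 and 38 of 633 in replicate 2. Cluster 2 had a median of 4430 UMIs per cell, against 8506 in cluster 0, 7936 in cluster 1 and 8145 in cluster 5. Cluster 1 made up 42.0% and 36.8% in WT and 25.3% and 20.4% in Din-KO, with 28 cells in Din-KO replicate 2. The part of the make-up in the pulp-like values of Lef1 and Sfrp2 was not tested. Within cluster 2 the values were 102 and 185 CPM in WT and 180 and 175 CPM in Din-KO, which overlapped (0.38 ± 0.34). Sfrp2 in pulp-like cells was at 167 and 614 CPM in WT and 222 and 1082 CPM in Din-KO (0.74 ± 0.72), and in cluster 2 alone at 2122 and 5311 CPM in WT and 1220 and 4173 CPM in Din-KO (-0.44 ± 0.57). The pulp-like value of Sfrp2 was -0.98 ± 0.52 when only cells with Xist and no Y-linked UMI were used, and that of Lef1 was 1.16 ± 0.47. Without WT replicate 2, the pulp-like difference of Lef1 was called (2.04 ± 0.36, edgeR adjusted p = 0.0017), and over 13 alternatives its adjusted p ran from 0.00019 to 1, with 3 past the threshold.

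**Figure D4:**
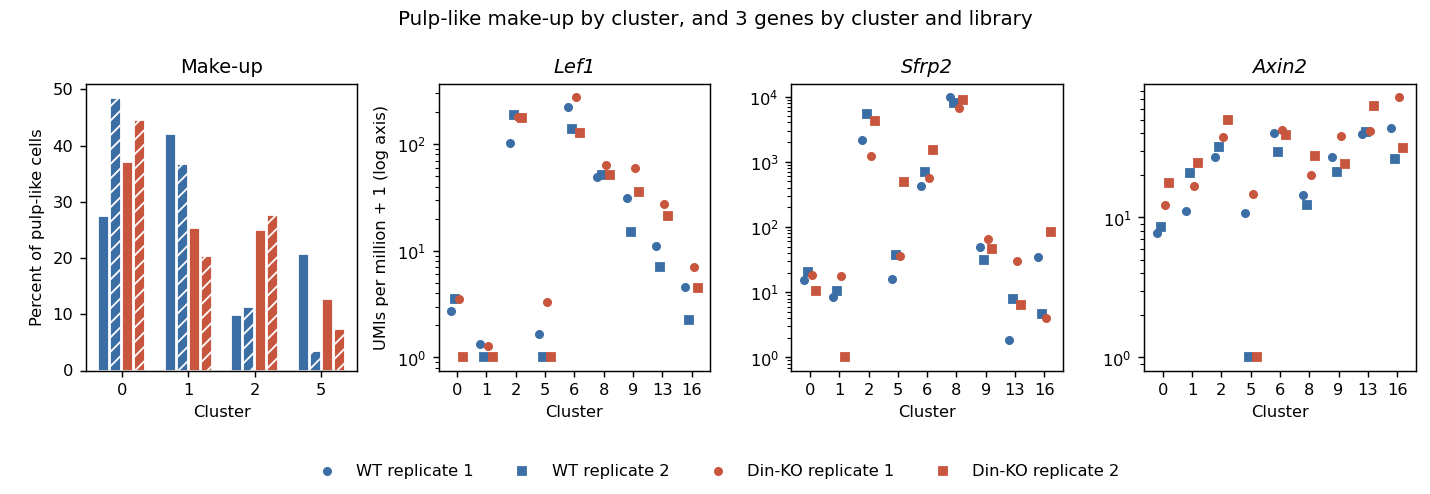
Left, percent of pulp-like cells in each pulp-like cluster per library (blue WT, red Din-KO, hatched bars replicate 2); right, CPM + 1 (log axis) of Lef1, Sfrp2 and Axin2 per cluster and library. Cluster 2 stands at 9.96% and 11.3% in WT and at 25.0% and 27.7% in Din-KO, and nearly all pulp-like Lef1 and Sfrp2 lies in it. The replicate 2 shares of cluster 2 rest on 23 of 204 cells in WT and 38 of 137 in Din-KO.

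In odontoblast-like cells Lef1 was at 7.3 and 2.8 CPM in WT and 17.8 and 10.1 CPM in Din-KO (1.46 ± 0.57), and within cluster 13 alone at 10.0 and 6.1 CPM in WT and 26.2 and 20.3 CPM in Din-KO (1.52 ± 0.44, edgeR adjusted p = 1, unadjusted p = 0.010). Sfrp2 was at 14.2 and 4.7 CPM in WT and 18.1 and 51.8 CPM in Din-KO (1.93 ± 0.74). Its value fell to 0.86 without Din-KO replicate 2 and was 2.80 when WT replicate 1 was left out, and over 12 alternatives the adjusted p ran from 0.0012 to 1, with 2 past the threshold. As given above, the share of these cells with a Sfrp2 UMI was not clear of background. These levels rest on 111 UMIs of Lef1 and 252 of Sfrp2 over the 4 libraries. The 9 markers of the follicle list summed to 231 and 275 CPM in WT and 253 and 472 CPM in Din-KO odontoblast-like cells, and their part in the Sfrp2 difference was not tested. Odontoblast-like cells had 5 of 9 tested genes higher in each Din-KO library than in either WT library (Sfrp2, Lef1, Wif1, Axin2 and Notum) and 0 below, where the shares of all tested genes were 13.2% and 6.28%. The 5 genes come from the same 4 libraries. Cluster 13 made up 66.0% and 35.6% of odontoblast-like cells in WT and 72.6% and 38.8% in Din-KO.

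Follicle-like cells had 2 of 10 genes with Din-KO above WT (Frzb and Axin2) and 0 below, against 15.6% and 7.77% of tested genes. Frzb was at 41.6 and 50.5 CPM in WT and 75.3 and 72.9 CPM in Din-KO (0.63 ± 0.21, edgeR adjusted p = 1, unadjusted p = 0.025), and in cluster 8 alone at 66.5 and 73.0 CPM in WT and 119 and 160 CPM in Din-KO (0.93 ± 0.24, edgeR adjusted p = 0.57, unadjusted p = 0.0053). Pulp-like cells had Lef1 and Axin2 above and 1 gene below, Dkk1, at 16.8 and 13.1 CPM in WT and 11.8 and 6.1 CPM in Din-KO (-0.62 ± 0.40), against 10.6% and 12.0% of tested genes. Over all mesenchyme-like cells 3 of 10 were above (Frzb, Axin2 and Dkk1) and 0 below, against 11.4% and 6.35%.

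The log2 fold change of Axin2 in Din-KO over WT was 0.79 ± 0.31 in pulp-like, 0.28 ± 0.23 in follicle-like and 0.40 ± 0.26 in odontoblast-like cells. The genotypes did not overlap in any of the 3 classes, with Din-KO the higher one. This held for 10.6%, 15.6% and 13.2% of tested genes in the single classes, in the same order. The share of genes for which it held in all 3 was not counted. By cell-cycle phase it did not hold throughout. In follicle-like cells in S or G2M phase Axin2 was at 37.2 and 36.9 CPM in WT and 27.9 and 34.5 CPM in Din-KO. In G1 phase these cells had 17.5 and 16.4 CPM in WT and 27.1 and 29.6 CPM in Din-KO. Pulp-like cells in S or G2M phase overlapped (WT 9.6 and 17.5 CPM, Din-KO 20.2 and 15.8 CPM). In odontoblast-like cells of both phases and in pulp-like G1 cells Din-KO was the higher one. In single clusters the Axin2 value was positive in 9 of the 9 clusters where it was tested, from 0.20 to 0.93. The count was 9 of 10 for Wif1, 5 of 6 for Lef1, 7 of 9 for Dkk3 and 3 of 5 for Notum. It was 5 of 9 for Sfrp1 and Sfrp2, 4 of 8 for Frzb, 2 of 6 for Dkk2 and 1 of 5 for Dkk1. The share of all genes with a positive value in every cluster was not counted. The fits by cluster were added after the make-up of the classes had been seen. The clusters share the 4 libraries and are not independent of each other. None of the 10 genes was called by edgeR in any of the 10 clusters fitted. Over all genes edgeR called 0.084% in cluster 1, 0.0134% in cluster 19, 0.0459% in cluster 8 and 0% in the other 7. The unadjusted p was under 0.05 for Lef1 in clusters 9 and 13 and for Axin2 and Frzb in cluster 8. Among all genes it was under 0.05 for 252 of 9502 in cluster 9, 165 of 8911 in cluster 13 and 443 of 10903 in cluster 8. In cells with Xist and no Y-linked UMI Axin2 was 1.00 ± 0.33 in pulp-like, 0.22 ± 0.34 in follicle-like and 0.42 ± 0.43 in odontoblast-like cells.

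Dkk1 and Notum in odontoblast-like cells did not pass the test. Dkk1 in odontoblast-like cells was at 628 ± 460 CPM in WT and 538 ± 178 CPM in Din-KO (SD, n = 2 each, log2 fold change -0.27 ± 0.56), and Notum at 292 ± 99.5 CPM and 393 ± 14.1 CPM (0.39 ± 0.32). Sfrp2, Dkk2 and Sfrp1 in follicle-like cells had fold changes of -0.04 ± 0.26, 0.03 ± 0.25 and -0.05 ± 0.37 on the log2 scale. Wif1 was at 0.42 ± 0.37 in pulp-like, 0.14 ± 0.37 in follicle-like and 0.29 ± 0.26 in odontoblast-like cells, and Dkk3 at -0.21 ± 0.28, 0.06 ± 0.48 and 0.23 ± 0.85. Din itself, counted by a 3' tag that does not check the deletion, was at 36.3 and 28.6 CPM in WT and 22.8 and 28.3 CPM in Din-KO mesenchyme-like cells.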

How the data were processed

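The deposited values are unnormalized UMI counts, which the authors made with Cell Ranger 6.0.2 and the mm10 (GRCm38) build. A barcode was kept as a cell if it had 1000 or more genes, and mitochondrial UMIs did not pass 10% nor hemoglobin UMIs 3%. Libraries were integrated in Seurat 5.3.0 (2000 variable genes, 30 principal components, cell cycle regressed, resolution 1) without the 10 genes and the pathway lists, and clusters were named by their mean marker score, a rule set with the data in hand. A cluster was given no class (other mesenchyme-like, or unnamed outside the mesenchyme) where the second list reached 0.9 of the best or its 10 leading genes spoke for another list. This was not applied to mesenchymal clusters led by the cycling list, so at resolution 0.5 a cluster with odontoblast genes among its leading genes was called cycling, and the odontoblast-like class held cluster 16 alone (36, 85, 45 and 63 cells). Scrublet marked 0.221% of cells, which was taken as a failed call, and no cell was removed as a doublet, and the top 5% by score were left out as an alternative. Between 4 and 12 barcodes were shared by any pair of libraries.

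Sums of UMIs per class and library were fitted by the quasi-likelihood method of edgeR 4.0.16 with TMM scaling and filterByExpr. The fits of Din-KO against WT held the genotype and no other covariate, and those between classes held the library as a block. The standard error given with an edgeR fold change is not an output of edgeR. It was computed as the absolute log2 fold change over the square root of the F statistic. In simulated data with 2-fold changes the genotype fits recovered 1.5% of the changed genes in pulp-like cells. They recovered 0% in follicle-like, odontoblast-like and all mesenchyme-like cells. With 4-fold changes they recovered 96.5% in pulp-like, 88% in follicle-like, 13.5% in odontoblast-like and 63% in all mesenchyme-like cells. The changed genes were drawn only from genes above a minimum mean CPM. The recovery therefore does not describe genes below that minimum. Among these were Notum, Dkk1 and Axin2 in pulp-like cells (mean 4.2, 11.9 and 16.6 CPM) and Lef1 in odontoblast-like cells (9.5 CPM). A count of 0 called between genotypes therefore does not show that genes did not differ. Intervals and limits of detection cover counting error only, and a count of 0 allows up to 3 UMIs, which is 0.21 to 2.29 CPM in a library of the 3 classes. Free RNA was not removed. The members and gene lists were chosen with earlier results of these data known. All 10 genes were named, pathway genes where called between genotypes or among the 3 largest called changes of their list between classes, and the 3 genes most alike to each, some of which are not reported here. Alternatives were RLE size factors, DESeq2 1.42.0, no filter, a replicate or no library block, each library left out, Xist cells, thinned cells, resolution 0.5 and cells chosen one by one. Sequences are from RefSeq and coordinates from GENCODE vM21.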

Additional observations from a re-analysis of the deposited data

How the results depend on the processing

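Each difference between classes that was called among the 10 genes kept its direction under every alternative run for it. For the class comparisons, leaving out each library in turn gave 7 to 8 called genes for follicle-like against pulp-like cells, 7 to 9 for odontoblast-like against pulp-like cells and 9 to 10 for odontoblast-like against follicle-like cells. With a library left out, the shares of all tested genes called were 28% to 32.3%, 37.7% to 43.4% and 42.2% to 44.9% in the same order. Over the other alternatives the counts were 7 to 9, 6 to 10 and 8 to 10. The shares of all tested genes there were 22.5% to 38.5%, 28.3% to 50.2% and 29.2% to 52.5%. For odontoblast-like against pulp-like cells the 9 called (4 higher, 5 lower) became 6 with cells chosen one by one (4 higher, 2 lower) and 6 with no library block (3 higher, 3 lower). Of all tested genes 44.2% and 37.1% were called in these 2 fits, against 48.9% in the main fit. For single genes, 319 class values stayed on their side of the threshold, 32 fell short of it, 6 passed it newly and 3 moved by more than their error. Lef1 (odontoblast-like against pulp-like cells) passed in 5 of 12 alternatives.

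For Din-KO against WT in pulp-like cells the count of 0 became 1 with no filter on low counts and 0 to 1 with a library left out (1, Lef1, without WT replicate 2), in odontoblast-like cells 1 with no filter (Sfrp2). Libraries with the same replicate number deviated together (correlation 0.52 in pulp-like, 0.60 in follicle-like, 0.71 in odontoblast-like and 0.79 in all mesenchyme-like cells), but there are only 2 pairs and the labels do not say that a number marks a shared batch. With the replicate number as a block, 2 genes were called in pulp-like cells (Lef1 and Sfrp2), 1 in odontoblast-like cells (Sfrp2) and 1 in all mesenchyme-like cells (Notum). The block fits called 1.86% of 13168, 0.647% of 10980 and 1.43% of 15279 tested genes in the same order. The cause was not tested. With no filter on low counts, 0.257% of 20613 genes were called in pulp-like cells and 0.179% of 17891 in odontoblast-like cells.

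Over all genes, the 2 called in pulp-like cells became 4 with cells chosen one by one, 13 in DESeq2, 53 with no filter, 245 with the block, 4 to 59 with a library left out and 0 in Xist cells. The 0 in follicle-like cells became 2, 36, 151 and 114 (Xist cells, DESeq2, no filter, block) and 11 to 42 with a library left out, the 0 in odontoblast-like cells 3, 32 and 71 (DESeq2, no filter, block) and the 0 in all mesenchyme-like cells 15, 8 and 219, and 2 to 9 with a library left out. Differences between classes had 1960, 2323 and 2383 called genes with thinned cells (follicle-like and odontoblast-like against pulp-like, odontoblast-like against follicle-like), where only 8151 genes were tested. With no library block 3125 of 12424 genes were called for follicle-like against pulp-like cells. The main fits tested 13224 genes. The difference of the genotype effect between classes had 11 (follicle-like) and 4 (odontoblast-like) with no filter, and 0 to 1 for odontoblast-like cells with a library left out. Depth limits Dkk2 in odontoblast-like cells, which had 47 UMIs, and pulp-like Notum, which had 72.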
